A study of Mus musculus with 9 samples.

Results

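The mitotic G2/M genes are 50 genes whose products carry a cell through G2 and mitosis, listed by name and not by a threshold on their values. The list was chosen with earlier results of these data known. A gene was counted as measured when a probe set of the array named it and no other gene, which held for 49 of the 50, out of 12393 genes measured in all. These 49 genes had 87 probe sets, and 24 of them had more than 1. For each gene the group takes the probe set that was brightest on average. The remaining gene, Ccnb1, which encodes cyclin B1, had no probe set naming it alone and was not analysed here.

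RNA was taken from MLP29, an established line of mouse hepatic progenitor cells, and each sample was hybridised to 1 Affymetrix Mouse430A_2 array. The study asked how gene expression changes when these cells scatter and migrate. All groups were first kept in 0.1% serum for 16 h or longer. Cells were then treated for 24 h with 10 µg/ml of the function-blocking anti-α5β1 integrin antibody BMB5, were treated with 20 ng/ml of HGF/SF1, the ligand of the Met receptor, or were left untreated. Each of 3 experiments, marked by a shared day in the labels, gave 1 array per condition, so that every condition has n = 3 and every value below is given for experiments 1, 2 and 3 in that order. All arrays come from 1 cell line. The methods name an IgG antibody among the controls of the study without tying it to an array, and the array controls are described there as untreated, so that on these arrays the addition of antibody and the block of α5β1 integrin cannot be told apart. The number of arrays limits the precision of every value.

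The genes work as a chain of events. CDK1 bound to cyclins A and B drives entry into mitosis once CDC25 phosphatases activate it, Aurora kinases and Polo-like kinase 1 build the spindle, condensins and topoisomerase II shape the chromosomes, and the spindle assembly checkpoint holds the anaphase-promoting complex (APC/C) back until every kinetochore is attached. Transcripts of most of these genes accumulate from late S phase to mitosis and are low in resting cells, and they are widely used as markers of proliferation, also in regenerating liver. Many of their promoters carry a CCAAT box, bound by the factor NF-Y, near a cell cycle genes homology region (CHR), through which the DREAM complex represses them in quiescence and a complex of B-MYB and FOXM1 activates them in G2.

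The promoters of 4 members are shown because they place both elements on the page for genes described in the results. They are the 150 bases before the transcription start in RefSeq (mouse build GRCm38.p6), written 5′ to 3′ on the strand of the gene, and the capitals mark every CHR (TTTGAA, or TTCAAA on the other strand) and every CCAAT box (CCAAT, or ATTGG on the other strand). They were taken in the order of the smallest p for antibody against untreated cells among the 15 members with both elements inside these bases. In all 4 genes every antibody array lay above every HGF/SF1 array, as in 16 of the 49 members and 5.72% of all genes. The choice of these 4 used the same antibody arrays and so favoured genes of this kind.
Ckap5 (chr2:91526612-91526761, plus strand): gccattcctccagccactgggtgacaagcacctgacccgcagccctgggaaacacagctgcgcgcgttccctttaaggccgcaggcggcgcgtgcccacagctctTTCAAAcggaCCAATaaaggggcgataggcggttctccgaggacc
Ube2c (chr2:164769779-164769928, plus strand): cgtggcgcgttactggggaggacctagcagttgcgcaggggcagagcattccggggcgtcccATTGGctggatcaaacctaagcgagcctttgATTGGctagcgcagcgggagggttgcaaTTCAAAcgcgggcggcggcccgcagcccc
Ckap2 (chr8:22185820-22185969, minus strand): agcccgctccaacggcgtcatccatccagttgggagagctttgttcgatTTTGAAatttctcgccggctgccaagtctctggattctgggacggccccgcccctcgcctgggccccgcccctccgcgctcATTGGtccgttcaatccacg
Prc1 (chr7:80294326-80294475, plus strand): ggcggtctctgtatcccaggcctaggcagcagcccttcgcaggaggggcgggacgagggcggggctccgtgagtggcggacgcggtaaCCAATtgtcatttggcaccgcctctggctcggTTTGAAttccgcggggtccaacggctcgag
Positions are counted from the transcription start used for the window, so that -1 is the last base shown. In Ckap5 and Prc1 this start lies inside the gene as annotated, which begins at 91526747 and 80294445. The CHR shown for Prc1 stands within the annotated gene. In Ckap5 the CHR begins at -45 and the CCAAT box at -35. In Prc1 the CCAAT box begins at -62 and the CHR at -30, whereas Ube2c holds 2 CCAAT boxes, the first at -88, upstream of a CHR at -29. In Ckap2 the CHR begins at -101 and the CCAAT box at -20.

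Windows from 250 bases before to 50 after the start were at hand for 44 of the 50 members and were searched on both strands. The CHR stood in 30 of them (68.2%), against 15.4% of 9887 measured genes with a window. The CCAAT box stood in 34 (77.3%), against 42.3%, and both stood in 27 (61.4%), against 6.02%. The letters of the CHR and the CCAAT box overlapped in none of the windows of the members. An E2F site (TTCGCGC or TTGGCGC), an element of G1/S promoters, stood in 6 members (13.6%) and in 7.39% of measured genes. These are matches of letters and not measured binding. The fold changes were close with and without a CHR. For antibody-treated against HGF/SF1-treated cells, the median log2 fold change was 0.89 over the 30 measured members with a CHR and 0.91 over the 13 without one. Over the 568 other measured genes that hold both elements it was -0.00, and 6.34% of those were called higher and 7.04% lower. Of all 9844 other measured genes with a window, 5.02% were called higher and 9.44% lower.

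A gene was called higher or lower when limma gave an unadjusted p under 0.05, and "rose" is kept for a p that stays under 0.05 after Benjamini-Hochberg adjustment across the 22626 probe sets tested. Fold changes are on the log2 scale. The standard error beside them is that of the fit without the experiment as a block, also for genes called with the block alone. In the condition means, antibody-treated cells had the highest and HGF/SF1-treated cells the lowest levels of the mitotic genes, with untreated cells between them. This order of the 3 condition means, antibody over untreated over HGF/SF1, held for 46 of 49 members, and for 23, 44 and 14 within experiments 1, 2 and 3. In experiment 1 untreated cells were above antibody-treated cells in 26 members, with HGF/SF1-treated cells lowest, and in experiment 3 HGF/SF1-treated cells were the middle level of 29, with antibody-treated cells highest. Against HGF/SF1, all 49 log2 fold changes of antibody-treated cells were above 0 (47.8% of all genes), with a median of 0.92 (median of all genes -0.01), and 21 members were at least 2-fold higher, as were 1.06% of all genes. Of the 49, 24 were called higher and 0 lower, where 5.19% of all genes were called higher and 8.96% lower. When the fit took the experiment as a block, which the shared days of the labels allow, 43 were called higher (8.73% of all genes) and 0 lower (11.6%). None passed the adjusted threshold in the fit without the block (0.0242% of all genes), and Bub1 and Smc4 rose in the blocked fit (adjusted p = 0.0491 each from limma, 1.13% of all genes past the threshold). The fold changes ran from 0.07 ± 0.18 for Fzr1 to 1.30 ± 0.29 for Smc4. In 16 members every antibody array lay above every HGF/SF1 array, which was so for 5.72% of all genes, and 45 members were higher in 3 of 3 experiments (15.5% of all genes). The arrays hold RNA of whole cultures, so a larger share of cells in G2 and mitosis and more of these transcripts per cell cannot be told apart here. By flow cytometry of DNA content, the paper saw no drastic shift in the cell cycle after the antibody. It describes a slight increase of cells in S phase that was not statistically significant, together with a smaller share in G0/G1. It does not compare antibody-treated with HGF/SF1-treated cells in this respect. Its methods give a shorter treatment for that assay than the 24 h of the arrays.

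**Figure D1:**
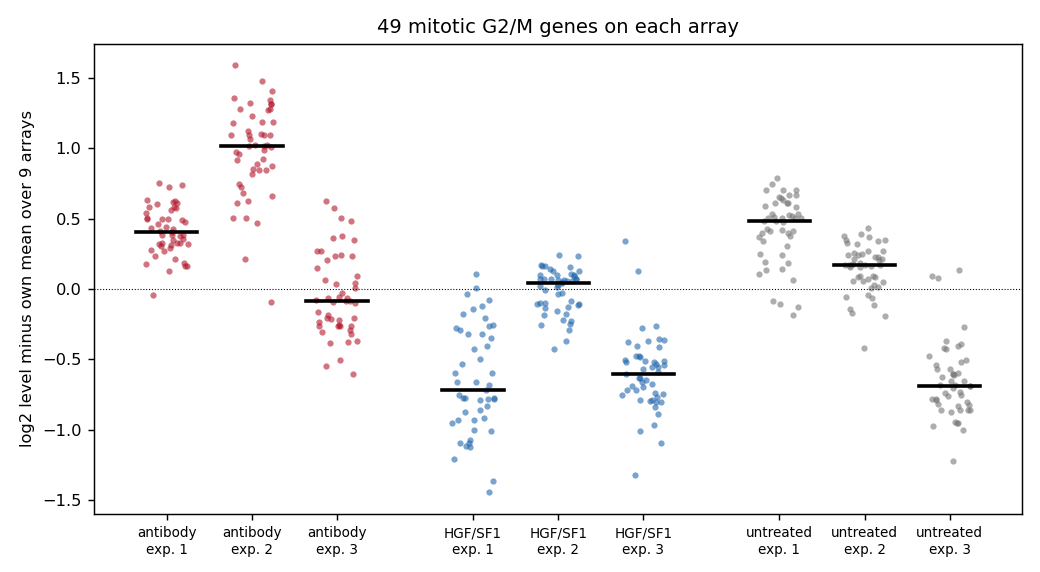
Log2 level of each of the 49 mitotic G2/M genes minus its own mean over the 9 arrays (vertical axis, log2 units) on each array (horizontal axis, by condition and experiment), with 1 point per gene and bars at the median. The antibody array of experiment 2 has the highest median, 1.02, and the antibody array of experiment 3, at -0.09, lies below the untreated arrays of experiments 1 and 2.

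The 9 arrays show how much of this came from the experiments. Taken as deviations of each gene from its own mean, the median of the members was 0.41, 1.02 and -0.09 on the antibody arrays of experiments 1, 2 and 3. It was -0.72, 0.04 and -0.61 on the HGF/SF1 arrays and 0.48, 0.17 and -0.69 on the untreated arrays. Within each condition the array of experiment 3 or, for HGF/SF1, that of experiment 1 had the lowest median, and the antibody array of experiment 2 held the highest value of 44 of the 49 members. The lowest value lay on the HGF/SF1 array of experiment 1 for 24 members and on the untreated array of experiment 3 for 15. The median deviation of all genes stayed between -0.02 and 0.02 on every array. Within experiments the median log2 difference of antibody-treated from HGF/SF1-treated cells was 1.10, 1.00 and 0.63, above 0 each time. The number of members called higher rested on single arrays. Leaving out the antibody array of experiment 2 gave 8, leaving out that of experiment 3 gave 40, and leaving out the HGF/SF1 array gave 11 for experiment 1 and 12 for experiment 3. Without experiments 1, 2 or 3 as a whole it was 9, 11 and 38. Calls over all probe sets, in either direction, were 2978 with every array. They were 1814 and 2347 without the antibody array of experiment 2 or 3. Without the HGF/SF1 array of experiment 1 or 3 they were 2678 and 2425, and without experiments 1, 2 or 3 as a whole 4059, 1257 and 1738. The median over the members stayed between 0.64 and 1.17 when any array or experiment was left out.

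**Figure D2:**
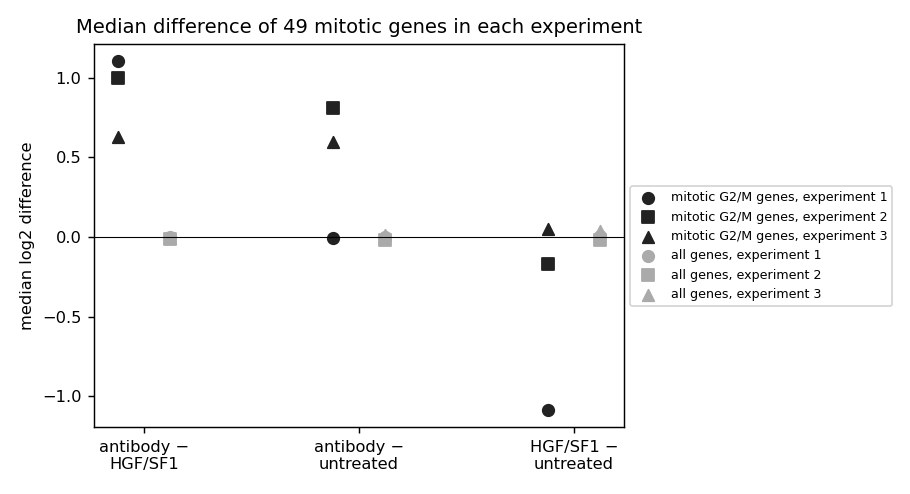
Median log2 difference between conditions (vertical axis) over the 49 mitotic G2/M genes (black) and over all genes (grey), with 1 point for each experiment, for the 3 comparisons. Antibody against HGF/SF1 is above 0 in each experiment, at 1.10, 1.00 and 0.63, whereas antibody against untreated is -0.01 in experiment 1.

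At mitotic entry, 4 of 9 measured members were called higher in antibody-treated than in HGF/SF1-treated cells, and 8 of 9 with the experiment as a block. The shares of all genes to set beside these and the later counts by role are 5.19% and, with the block, 8.73%. Cdk1, the kinase that triggers mitosis, had log2 levels of 10.88, 11.11 and 10.06 in antibody-treated cells, 9.44, 10.16 and 9.89 in HGF/SF1-treated cells and 10.75, 10.43 and 9.67 in untreated cells. Its partner Ccna2, or cyclin A2, had 10.23, 10.72 and 9.36 in antibody-treated cells, 8.55, 9.78 and 8.83 in HGF/SF1-treated cells and 10.33, 9.99 and 8.82 in untreated cells. Ccnb2, or cyclin B2, had 10.75, 10.84 and 10.15 in antibody-treated cells, 9.71, 10.24 and 9.31 in HGF/SF1-treated cells and 10.46, 10.46 and 9.11 in untreated cells. For all 3 genes the HGF/SF1 arrays were the lowest of their experiment in experiments 1 and 2, and the antibody array of experiment 3 lay below the HGF/SF1 array of experiment 2, so that the 2 groups overlapped. The log2 fold change over HGF/SF1 was 0.86 ± 0.35 for Cdk1, which was called, 1.05 ± 0.50 for Ccna2 and 0.82 ± 0.40 for Ccnb2, both called with the block alone. The other probe set of Ccna2 gave 1.27 ± 0.40 and was called.

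Cdc25b, the phosphatase that starts the activation of CDK1, had log2 levels of 7.90, 8.996 and 8.35 in antibody-treated cells, 6.77, 7.77 and 7.22 in HGF/SF1-treated cells and 7.60, 7.99 and 6.94 in untreated cells. Each antibody array exceeded all 3 HGF/SF1 arrays. The difference was nearly the same in each experiment, 1.13, 1.23 and 1.13, and the log2 fold change was 1.16 ± 0.37 (adjusted p = 0.243 from limma). Cks2, a small subunit that binds CDK1, had 10.56, 10.61 and 10.21 in antibody-treated cells, 9.50, 9.63 and 9.52 in HGF/SF1-treated cells and 10.59, 9.81 and 9.58 in untreated cells, again with no overlap between antibody and HGF/SF1 arrays, and a log2 fold change of 0.91 ± 0.24. Plk1, the Polo-like kinase of mitotic entry and spindle assembly, had 9.43, 10.17 and 8.88 in antibody-treated cells, 8.33, 9.09 and 8.56 in HGF/SF1-treated cells and 9.73, 9.37 and 8.36 in untreated cells, where the antibody array of experiment 3 lay below the HGF/SF1 array of experiment 2. Nek2, a centrosomal kinase, had 6.52, 7.38 and 6.63 in antibody-treated cells, 6.27, 6.36 and 5.65 in HGF/SF1-treated cells and 6.64, 6.24 and 5.82 in untreated cells. Its antibody arrays lay above all HGF/SF1 arrays, while the untreated array of experiment 1 was above the antibody array of the same experiment. The log2 fold change over HGF/SF1 was 0.83 ± 0.42 for Plk1, called with the block alone, and 0.75 ± 0.30 for Nek2, called in both fits. The other members of the group, Cdc25c and the CDK subunit gene Cks1b, had log2 fold changes of 0.46 ± 0.40, called with the block alone, and 0.20 ± 0.21, called in neither fit.

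**Figure D3:**
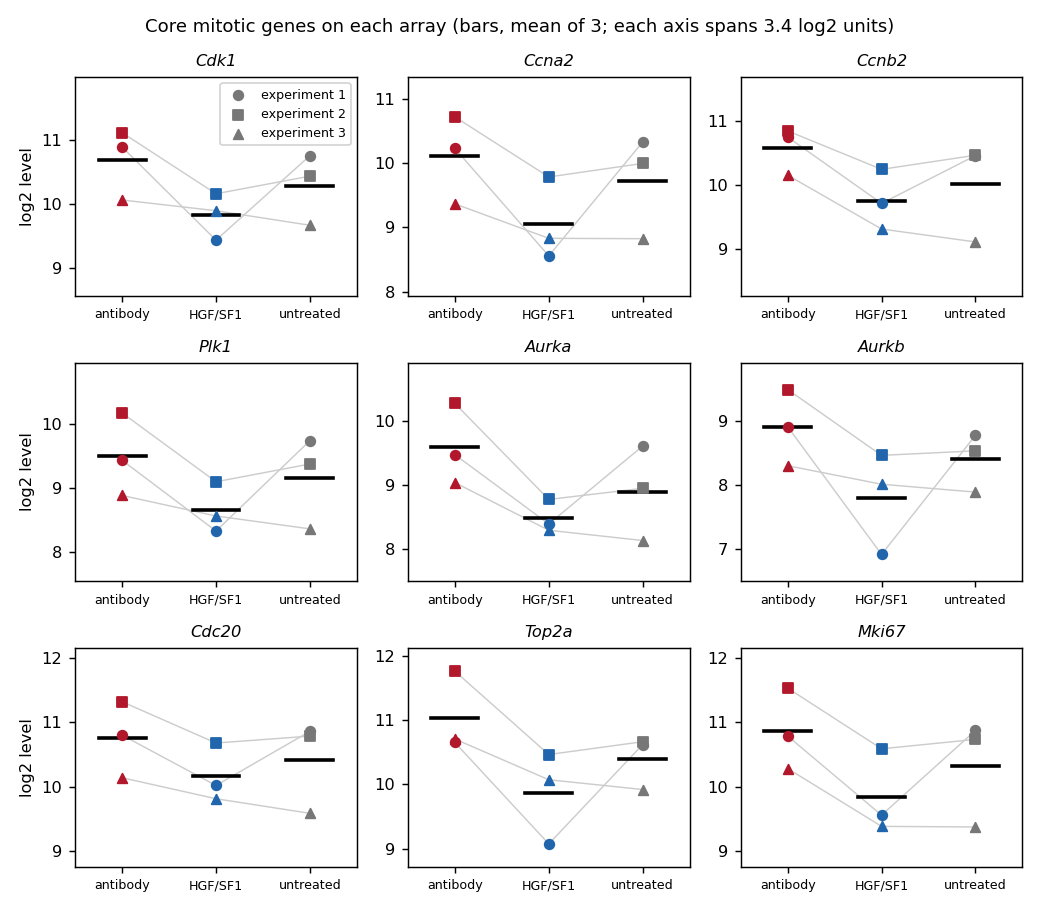
Log2 level (vertical axis, each panel spanning 3.4 units) of 9 core mitotic genes in antibody-treated, HGF/SF1-treated and untreated cells, with 1 symbol per array, grey lines joining the arrays of 1 experiment and bars at the mean of 3. Experiment 3 (triangles) is lower than experiment 2 (squares) for every gene and condition shown, and in experiment 1 (circles) the HGF/SF1 array is the lowest of the 3 conditions.

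All 4 members around the Aurora kinases were called higher in antibody-treated than in HGF/SF1-treated cells. Aurka, the Aurora kinase of centrosomes and spindle poles, had log2 levels of 9.47, 10.27 and 9.04 in antibody-treated cells, 8.40, 8.78 and 8.30 in HGF/SF1-treated cells and 9.61, 8.95 and 8.14 in untreated cells. Its activator on the spindle, Tpx2, had 9.61, 10.41 and 9.39 in antibody-treated cells, 8.57, 9.12 and 8.75 in HGF/SF1-treated cells and 9.48, 9.32 and 8.45 in untreated cells. Neither gene had an antibody array as low as any HGF/SF1 array, and the log2 fold changes were 1.10 ± 0.41 for Aurka and 0.99 ± 0.34 for Tpx2. A dimmer probe set of Tpx2 went the other way, at -0.34 ± 0.40, and the mean over both probe sets, 0.32, was not called. Aurkb, the kinase of the chromosomal passenger complex, had 8.91, 9.49 and 8.30 in antibody-treated cells, 6.92, 8.46 and 8.01 in HGF/SF1-treated cells and 8.78, 8.53 and 7.89 in untreated cells. Birc5, or survivin, which holds that complex at centromeres, had 10.46, 10.93 and 9.94 in antibody-treated cells, 8.76, 10.03 and 9.36 in HGF/SF1-treated cells and 10.61, 10.29 and 9.34 in untreated cells. The HGF/SF1 array of experiment 1 was the lowest of all 9 for both, and in both the antibody array of experiment 3 lay below the HGF/SF1 array of experiment 2. The log2 fold changes were 1.10 ± 0.44 for Aurkb and 1.06 ± 0.42 for Birc5, with differences of 1.70, 0.90 and 0.58 in the 3 experiments for Birc5. The other probe set of Aurkb gave 1.06 ± 0.44.

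Of the spindle assembly checkpoint, 2 of 5 members were called higher in antibody-treated than in HGF/SF1-treated cells, and 4 of 5 with the block. Bub1, a checkpoint kinase of the kinetochore, had log2 levels of 8.92, 9.77 and 8.69 in antibody-treated cells, 8.09, 8.13 and 7.63 in HGF/SF1-treated cells and 8.48, 8.30 and 7.73 in untreated cells. Its antibody arrays lay above every HGF/SF1 array and every untreated array. The log2 fold change was 1.18 ± 0.31 over HGF/SF1 (adjusted p = 0.186 from limma, 0.0491 with the block) and 0.96 ± 0.31 over untreated cells, the largest of the 49 members in that comparison. A dim second probe set of Bub1 gave -0.01 ± 0.19 and -0.27 ± 0.19, and with the mean of both probe sets the change over untreated cells was 0.35 and not called. Bub1b, or BubR1, which inhibits the APC/C, had 9.21, 9.62 and 8.52 in antibody-treated cells, 7.48, 8.68 and 8.07 in HGF/SF1-treated cells and 9.11, 8.82 and 7.92 in untreated cells. The antibody array of experiment 3 lay below the HGF/SF1 array of experiment 2, and the log2 fold change over HGF/SF1 was 1.04 ± 0.42. The checkpoint genes Ttk and Mad2l1 had log2 fold changes of 0.78 ± 0.39 and 0.76 ± 0.41, both called with the block alone. Bub3, which brings BUB1 and BUBR1 to kinetochores, had 0.28 ± 0.22 and was called in neither fit, and 2 of its 3 dimmer probe sets were below 0.

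At the centromere and kinetochore, 2 of 6 members were called higher in antibody-treated than in HGF/SF1-treated cells, and 5 of 6 with the block. Spag5, or astrin, which steadies the attachment of microtubules to kinetochores, had log2 levels of 7.64, 8.39 and 7.87 in antibody-treated cells, 6.18, 7.04 and 6.82 in HGF/SF1-treated cells and 7.71, 7.36 and 6.64 in untreated cells. The antibody and HGF/SF1 arrays did not overlap, and the log2 fold change was 1.29 ± 0.33, with 0.98 ± 0.24 and 1.49 ± 0.40 in its other probe sets. Cenpa, the histone H3 variant that marks centromeres, had 9.25, 9.80 and 8.79 in antibody-treated cells, 8.01, 8.96 and 8.10 in HGF/SF1-treated cells and 9.17, 9.06 and 7.97 in untreated cells. Cenpf, a large kinetochore protein made in G2, had 8.91, 10.001 and 8.09 in antibody-treated cells, 7.73, 8.51 and 7.40 in HGF/SF1-treated cells and 8.89, 8.62 and 7.55 in untreated cells. Its antibody array of experiment 2 deviated more from the gene's mean than any other value of the 49 genes, and the arrays of the 2 treatments overlapped in both genes. The log2 fold change was 0.92 ± 0.40 for Cenpa, called in both fits, and 1.12 ± 0.53 for Cenpf, called with the block alone, and a dimmer probe set of Cenpf gave 0.60 ± 0.25 and was called. Ndc80 and Nuf2, partners in the complex that grips microtubules, had 0.56 ± 0.33 and 0.98 ± 0.48, called with the block alone. The kinesin gene Cenpe was dim, with log2 levels of 3.90, 4.13 and 3.37 in antibody-treated cells, 3.45, 3.21 and 3.23 in HGF/SF1-treated cells and 4.42, 3.21 and 3.76 in untreated cells, and its log2 fold change of 0.50 ± 0.30 was called in neither fit.

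Among the mitotic kinesins, motors that move along spindle microtubules, 1 of 6 members was called higher in antibody-treated than in HGF/SF1-treated cells, and 5 of 6 with the block. Kif4, the chromokinesin of chromosome arms and the anaphase midzone, had log2 levels of 7.75, 8.63 and 7.38 in antibody-treated cells, 6.46, 7.38 and 6.55 in HGF/SF1-treated cells and 7.71, 7.49 and 6.50 in untreated cells. The antibody array of experiment 3 equalled the HGF/SF1 array of experiment 2 to 2 decimals, and the log2 fold change was 1.13 ± 0.42. Kif22, another chromokinesin, had 9.80, 10.49 and 9.27 in antibody-treated cells, 9.19, 9.50 and 8.92 in HGF/SF1-treated cells and 9.62, 9.72 and 8.79 in untreated cells. Its change was 0.65 ± 0.35 and was called with the block alone, whereas its dimmer probe sets, at 1.07 ± 0.40 and 1.15 ± 0.46, were called in the fit without it. Kif11, which pushes the spindle poles apart, had 0.94 ± 0.49, Kif20a, a motor of cytokinesis, had 0.70 ± 0.38, and Kif2c, which depolymerises microtubules at centromeres, had 0.80 ± 0.52, all called with the block alone. The midzone motor gene Kif23 had 0.22 ± 0.32, the lowest of the 6, and was not called in either fit.

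Of 7 members that shape chromosomes, 3 were called higher in antibody-treated than in HGF/SF1-treated cells, and 6 with the block. Smc4, the ATPase subunit shared by both condensins, had log2 levels of 10.49, 11.29 and 10.56 in antibody-treated cells, 9.14, 9.88 and 9.43 in HGF/SF1-treated cells and 10.19, 10.09 and 9.45 in untreated cells. Every antibody array was above every HGF/SF1 and untreated array. Its log2 fold change over HGF/SF1 was 1.30 ± 0.29 (adjusted p = 0.142 from limma, 0.0491 with the block), its experiments gave 1.35, 1.41 and 1.14, and its 2 dimmer probe sets gave 1.40 ± 0.55 and 1.38 ± 0.20. Smc2, the partner of SMC4, had 9.57, 10.11 and 9.005 in antibody-treated cells, 8.84, 9.005 and 8.60 in HGF/SF1-treated cells and 9.72, 9.20 and 8.65 in untreated cells. Ncaph, the kleisin subunit of condensin I, had 8.79, 9.30 and 8.20 in antibody-treated cells, 7.75, 8.34 and 7.55 in HGF/SF1-treated cells and 8.80, 8.53 and 7.34 in untreated cells. In both genes the antibody array of experiment 3 was close to or below the HGF/SF1 array of experiment 2, and the log2 fold changes were 0.75 ± 0.33 for Smc2, called, and 0.88 ± 0.42 for Ncaph, called with the block alone or by its dimmer probe set at 0.82 ± 0.25. The call of Smc2 was lost with the arrays centred on their medians and with quantile normalization.

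Top2a, the topoisomerase that untangles sister chromatids, had log2 levels of 10.65, 11.76 and 10.71 in antibody-treated cells, 9.07, 10.47 and 10.07 in HGF/SF1-treated cells and 10.62, 10.66 and 9.92 in untreated cells. Its HGF/SF1 array of experiment 1 was the lowest of the 9 and its antibody array of experiment 2 the highest, and the 2 groups did not overlap. The log2 fold change over HGF/SF1 was 1.17 ± 0.42, and a dim probe set gave -0.13 ± 0.19. Mki67, which encodes the proliferation marker Ki-67 of the chromosome surface, had 10.79, 11.53 and 10.28 in antibody-treated cells, 9.56, 10.59 and 9.38 in HGF/SF1-treated cells and 10.88, 10.74 and 9.37 in untreated cells. The arrays of experiment 3 lay lowest within each condition, and the log2 fold change of 1.03 ± 0.50 was called with the block alone. The condensin gene Ncapd2 had 0.77 ± 0.38, called with the block alone. Hmgb2, a DNA-bending chromatin protein, had 0.76 ± 0.42 and was called in neither fit.

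**Figure D4:**
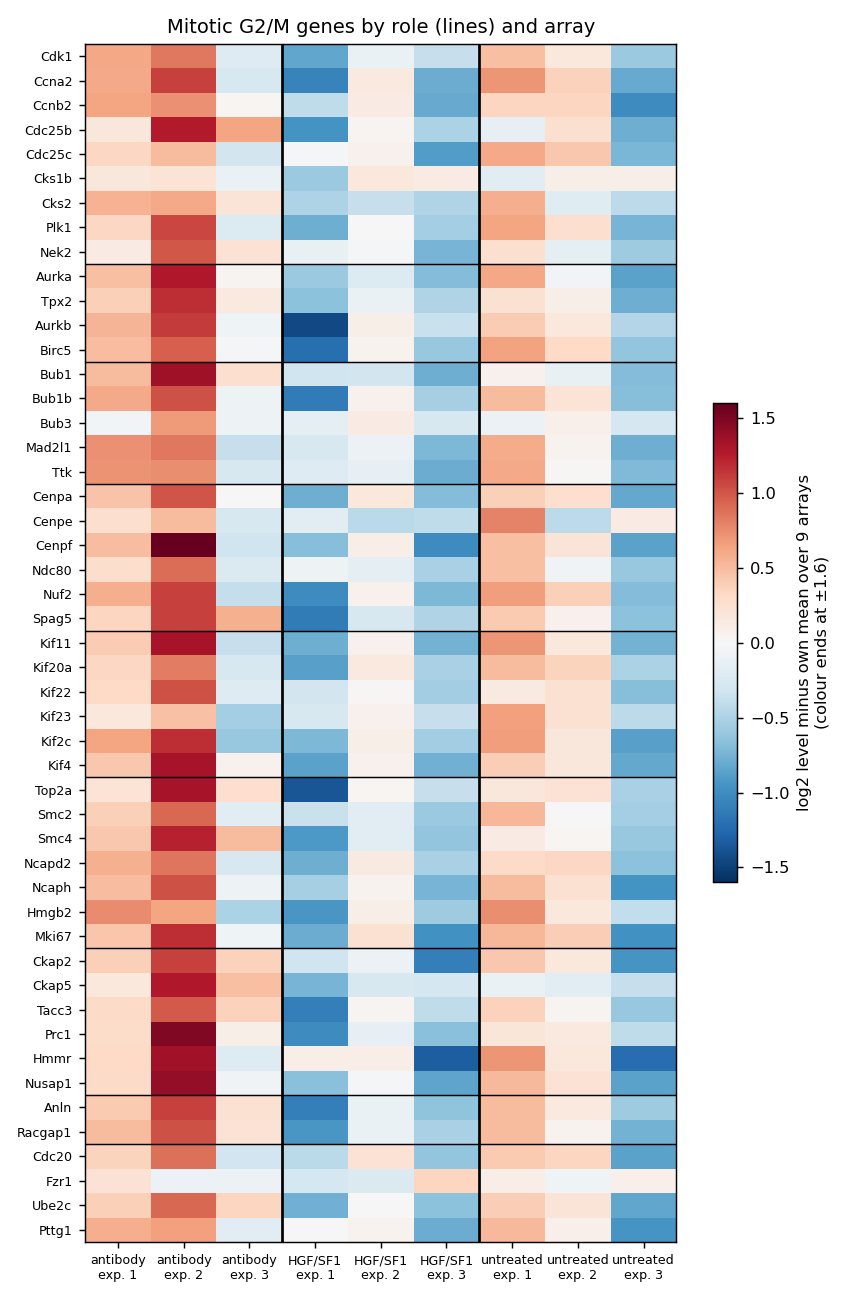
Log2 level of each mitotic G2/M gene (rows, grouped by role between the horizontal lines) minus its own mean on each of the 9 arrays (columns, by condition and experiment), with red above and blue below the mean. The columns of the antibody in experiment 2, HGF/SF1 in experiments 1 and 3 and untreated cells in experiment 3 stand out across all roles, and Fzr1 and Cks1b are the palest rows.

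Of 6 genes for proteins on spindle microtubules, 5 were called higher in antibody-treated than in HGF/SF1-treated cells, and all 6 with the block. Ckap5, or ch-TOG, a microtubule polymerase, had log2 levels of 8.66, 9.77 and 8.98 in antibody-treated cells, 7.74, 8.24 and 8.22 in HGF/SF1-treated cells and 8.39, 8.33 and 8.13 in untreated cells. Its antibody arrays were above all 6 other arrays, and the log2 fold changes were 1.07 ± 0.27 over HGF/SF1 and 0.85 ± 0.27 over untreated cells. Ckap2, which binds spindle microtubules, had 9.36, 10.08 and 9.34 in antibody-treated cells, 8.66, 8.89 and 7.88 in HGF/SF1-treated cells and 9.41, 9.15 and 8.03 in untreated cells. Tacc3, which forms a complex with ch-TOG on the spindle, had 8.03, 8.70 and 8.10 in antibody-treated cells, 6.63, 7.77 and 7.31 in HGF/SF1-treated cells and 8.09, 7.77 and 7.12 in untreated cells. Prc1, which bundles microtubules of the anaphase midzone, had 9.51, 10.70 and 9.31 in antibody-treated cells, 8.21, 9.08 and 8.54 in HGF/SF1-treated cells and 9.41, 9.38 and 8.81 in untreated cells. None of these 3 genes had an antibody array as low as any HGF/SF1 array, and the promoters of Ckap2, Ckap5 and Prc1 are those printed above. The log2 fold changes over HGF/SF1 were 1.12 ± 0.40 for Ckap2, 1.04 ± 0.34 for Tacc3 and 1.22 ± 0.38 for Prc1. The dimmer probe sets of Tacc3 gave 0.91 ± 0.19 and 1.23 ± 0.22, and that of Prc1 gave 1.22 ± 0.39.

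Hmmr, the hyaluronan receptor that also acts at spindle poles, had log2 levels of 9.10, 10.12 and 8.56 in antibody-treated cells, 8.88, 8.88 and 7.45 in HGF/SF1-treated cells and 9.48, 8.95 and 7.55 in untreated cells. In experiment 3 its HGF/SF1 and untreated arrays were over 1 log2 unit below those of experiments 1 and 2, and the log2 fold change over HGF/SF1 was 0.86 ± 0.61, called with the block alone. Of its 3 dimmer probe sets, 1 was called at 1.08 ± 0.42. Nusap1, which ties microtubules to chromosomes, had 9.31, 10.40 and 8.93 in antibody-treated cells, 8.33, 8.96 and 8.15 in HGF/SF1-treated cells and 9.51, 9.22 and 8.13 in untreated cells. The antibody array of experiment 3 lay just under the HGF/SF1 array of experiment 2, the log2 fold change was 1.06 ± 0.46, and a dim probe set gave -0.01 ± 0.12.

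Both genes of cytokinesis were called higher in antibody-treated than in HGF/SF1-treated cells. Anln, or anillin, the scaffold of the contractile ring, had log2 levels of 11.14, 11.82 and 10.97 in antibody-treated cells, 9.63, 10.62 and 10.08 in HGF/SF1-treated cells and 11.23, 10.89 and 10.16 in untreated cells. Racgap1, part of the complex that places the cleavage furrow, had 9.86, 10.38 and 9.59 in antibody-treated cells, 8.43, 9.26 and 8.84 in HGF/SF1-treated cells and 9.86, 9.42 and 8.60 in untreated cells. In both the antibody and HGF/SF1 arrays were apart, and in experiment 1 the untreated array was level with or above the antibody array. The log2 fold changes over HGF/SF1 were 1.20 ± 0.35 for Anln and 1.10 ± 0.35 for Racgap1.

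Of 4 genes of the APC/C and mitotic exit, 1 was called higher in antibody-treated than in HGF/SF1-treated cells, and 3 with the block. Ube2c, the ubiquitin-conjugating enzyme of the APC/C, had log2 levels of 11.81, 12.35 and 11.78 in antibody-treated cells, 10.66, 11.44 and 10.77 in HGF/SF1-treated cells and 11.82, 11.63 and 10.60 in untreated cells. Its antibody arrays lay above all HGF/SF1 arrays, and its log2 fold change was 1.02 ± 0.35, with 1.16, 0.91 and 1.01 in the 3 experiments. Cdc20, the activator of the APC/C in mitosis, had 10.80, 11.32 and 10.14 in antibody-treated cells, 10.02, 10.68 and 9.81 in HGF/SF1-treated cells and 10.86, 10.78 and 9.58 in untreated cells. Pttg1, or securin, which the APC/C destroys at anaphase, had 12.24, 12.31 and 11.49 in antibody-treated cells, 11.66, 11.71 and 10.86 in HGF/SF1-treated cells and 12.18, 11.74 and 10.71 in untreated cells. The antibody array of experiment 3 lay below the HGF/SF1 array of experiment 2 for Cdc20 and below those of experiments 1 and 2 for Pttg1, while the differences within experiments were 0.78, 0.64 and 0.33 for Cdc20 and 0.58, 0.60 and 0.63 for Pttg1. The log2 fold changes were 0.58 ± 0.42 for Cdc20 and 0.60 ± 0.41 for Pttg1, both called with the block alone, and a dimmer probe set of Pttg1 was called at 0.56 ± 0.21. Fzr1, the Fizzy-related protein that activates the APC/C after mitosis and in G1, had 7.85, 7.53 and 7.53 in antibody-treated cells, 7.35, 7.39 and 7.96 in HGF/SF1-treated cells and 7.73, 7.56 and 7.70 in untreated cells. It was the member with the smallest difference, and the HGF/SF1 array of experiment 3 was its highest.

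**Figure D5:**
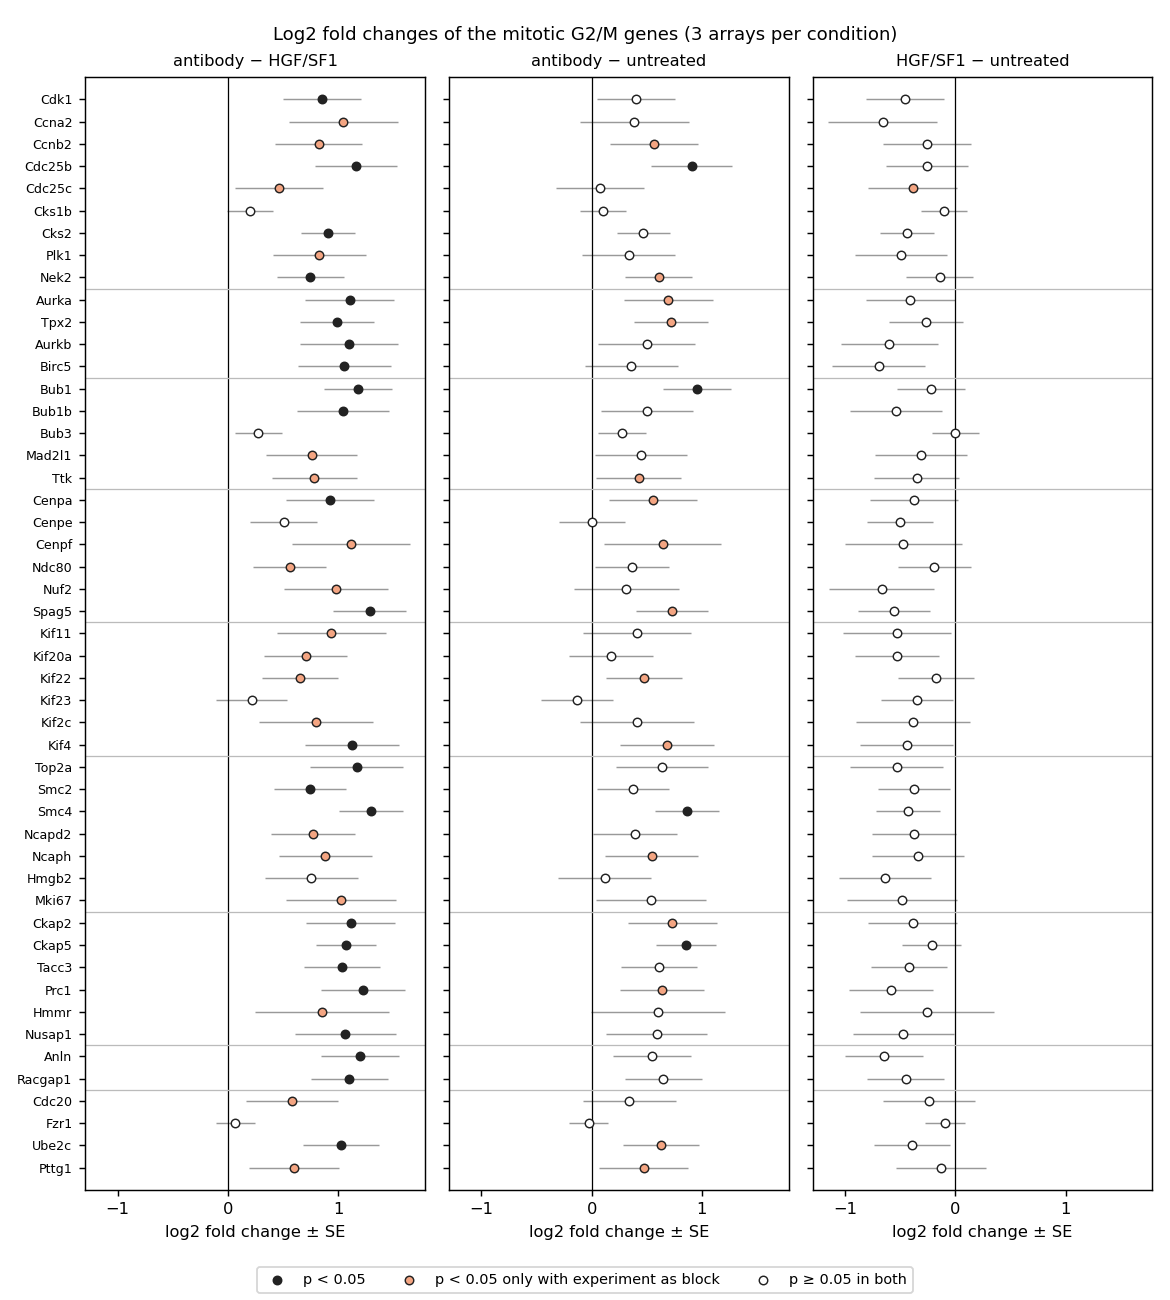
Log2 fold change with its standard error from the fit without the block (horizontal axis) for each mitotic G2/M gene (rows, grouped by role) in antibody against HGF/SF1, antibody against untreated and HGF/SF1 against untreated, 3 arrays per condition. Filled points passed an unadjusted p under 0.05 in limma without the block (24, 4 and 0 genes), orange points with the experiment as a block alone.

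Against untreated cells the antibody gave smaller differences. The median log2 fold change over the members was 0.50 (all genes -0.00), 47 of 49 were above 0 (49.7% of all genes), and 4 were called higher and 0 lower, where 4.68% of all genes were called higher and 7.92% lower. The 4 were Cdc25b at 0.91 ± 0.37, Bub1 at 0.96 ± 0.31, Smc4 at 0.87 ± 0.29 and Ckap5 at 0.85 ± 0.27, and the smallest adjusted p of a member was 0.275 for Ckap5 from limma (0.0403% of all genes passed). With the experiment as a block, 19 were called higher (7.81% of all genes) and 0 lower (10.7%), and none passed the adjusted threshold (0.121%). The antibody and untreated arrays were apart in 3 members, Bub1, Smc4 and Ckap5, a share like that of all genes (6.21%). Experiment 1 differed from the others. The median difference was -0.01 there, 0.81 in experiment 2 and 0.59 in experiment 3, and 23, 48 and 44 of 49 members were above 0. In 20 members the antibody array was higher in 3 of 3 experiments (18.4% of all genes), and Kif23, at -0.13 ± 0.32, was the lowest of the 49. The count of 4 was 10 with the untreated array of experiment 1 left out and 8 with all of experiment 1 left out. It was 2 with experiment 2 or its antibody array left out, and 1 with experiment 3 or its untreated array left out. Calls over all probe sets, in either direction, were 2674 with every array. They were 2072 without the untreated array of experiment 1 and 3936 without experiment 1. Without experiment 2 or its antibody array they were 912 and 1607, and without experiment 3 or its untreated array 1445 and 2381. The median ran from 0.15 to 0.77 with these arrays left out in turn.

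HGF/SF1-treated cells had lower log2 levels of most mitotic genes than untreated cells, but no difference was called. The median log2 fold change was -0.40 (all genes 0.01), 48 of 49 members were below 0 (1 above, against 52.3% of all genes), and none was called higher or lower, as only 0.533% of all genes were called higher and 0.307% lower. With the block, Cdc25c was called lower at -0.39 (0.662% of all genes). Its standard error was 0.14 in that fit and 0.40 in the fit without the block. The medians of experiments 1, 2 and 3 were -1.09, -0.17 and 0.05, and 15 members were lower in 3 of 3 experiments (11.7% of all genes). In experiment 1, all 49 members were lower after HGF/SF1, among them Aurkb at -1.85, Ccna2 at -1.77 and Top2a at -1.55. In experiment 3, 33 of 49 were higher. Without experiment 1 the median was -0.04, and without the untreated array of experiment 3 it was -0.77 and 10 members were called lower. With all of experiment 3 left out, or with the array of HGF/SF1-treated cells in experiment 2 left out, 2 were called lower. With experiment 2 or its untreated array left out, 1 was called lower. Over all probe sets and in either direction, every array together gave 192 calls. Dropping the untreated array of experiment 3 gave 336, and dropping all of experiment 3 gave 242. Dropping the experiment 2 array of HGF/SF1-treated cells gave 366. Dropping experiment 2 or its untreated array gave 204 and 336. The antibody and HGF/SF1 comparisons with untreated cells share the 3 untreated arrays, 1 of which, that of experiment 3, was among the lowest in the members.

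The members moved together over the arrays. Pearson's r of a member with the mean of the other members over the 9 arrays had a median of 0.937 and was above 0.9 for 34 of 49. It was highest for Kif4 (0.993), and lowest for Fzr1 (-0.0429), Cks1b (0.400) and Cenpe (0.570). These values describe 9 arrays that share conditions and experiments, and genes are not independent replicates. Over all 87 probe sets of the members, the median log2 fold change of antibody-treated against HGF/SF1-treated cells was 0.88, with 40 called higher (5.2% of all probe sets), 0 lower and 81 above 0. For antibody-treated against untreated cells 8 of the 87 were called higher (4.53%) and for HGF/SF1-treated against untreated cells 1 was called lower (0.349%), a dim probe set of Tacc3 at -0.46 ± 0.19.

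A second list held other genes grouped with mitosis, 80 of 114 of them measured. It is broad and holds some genes not particular to mitosis, among them Kif3a and Nipbl. In antibody-treated against HGF/SF1-treated cells 19 were called higher (5.19% of all genes) and 1 lower (8.96%), with a median of 0.30, and with the block 31 higher (8.73%) and 3 lower (11.6%). Against untreated cells 9 were called higher (4.68%) and 1 lower (7.92%), with a median of 0.16, and with the block 20 higher (7.81%) and 0 lower (10.7%). For HGF/SF1-treated against untreated cells none was called in the fit without the block, the median was -0.14, and the block called 2 lower (0.662%), the condensin gene Ncapg2 at -0.68 ± 0.32 and the kinesin gene Kifc1 at -0.41 ± 0.28. Among those called higher in antibody-treated than in untreated cells were Nipbl, the cohesin loader, at 0.78 ± 0.23, Plk4, the kinase of centriole duplication, at 0.83 ± 0.27, Mastl, or Greatwall, which keeps phosphatases off CDK1 substrates, at 0.61 ± 0.24, the ciliary kinesin gene Kif3a at 0.84 ± 0.29, Anapc1, an APC/C subunit, at 0.36 ± 0.14, and Incenp, the passenger complex scaffold, at 0.77 ± 0.33. The kinetochore gene Mis12 was called lower, at -0.54 ± 0.23, in the fit without the block alone. The APC/C subunits, which are not tied to G2, were taken as a group together with Ube2s, which is not a subunit. This group had a median of -0.08 for antibody-treated against HGF/SF1-treated cells. Of its 14 measured genes, 1 was called higher (5.19% of all genes) and 1 lower (8.96%). With the block 3 were called higher (8.73%) and 2 lower (11.6%).

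Of 19 measured regulators of the mitotic program, 4 were called higher (4.68% of all genes) and 1 lower (7.92%) after the antibody against untreated cells, and 4 higher (5.19%) and 1 lower (8.96%) against HGF/SF1. With the block, 5 were called higher against HGF/SF1 (8.73% of all genes). Cdkn1c, a CDK inhibitor, had 0.72 ± 0.14 over untreated cells, Rb1, the retinoblastoma protein gene, 1.04 ± 0.32, and Nfyc, a subunit of NF-Y, -0.57 ± 0.19, while Nfyb, another subunit, had 0.57 ± 0.25. Foxm1, the activator of G2/M promoters, had log2 levels of 7.26, 7.31 and 7.06 in antibody-treated cells, 5.95, 6.43 and 6.71 in HGF/SF1-treated cells and 7.19, 6.82 and 6.43 in untreated cells. Its antibody arrays were above all HGF/SF1 arrays, and its log2 fold change was 0.84 ± 0.23 over HGF/SF1, called, and 0.40 ± 0.23 over untreated cells, not called. Of 58 measured genes of G1/S and DNA replication, 3 were called higher and 1 lower after the antibody against untreated cells, with a median of -0.04, and 5 and 2 against HGF/SF1, with a median of 0.27. In number the 3 are near the share of all genes called higher (4.68%), and the 1 is below the share called lower (7.92%). Against HGF/SF1 the shares of all genes were 5.19% called higher and 8.96% called lower. The block called 2 lower against untreated cells, where it called 10.7% of all genes lower. Orc4, of the origin recognition complex, had 0.65 ± 0.21 and the licensing factor gene Cdt1 0.69 ± 0.27 over untreated cells, whereas Ccnd2, or cyclin D2, had -0.96 ± 0.36. Of the 19 regulators and the 58 G1/S genes, 0 were called for HGF/SF1-treated against untreated cells.

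The samples were checked by markers and by quality signals. The epithelial and progenitor genes Krt8, Krt18, Krt19, Cd24a and Cdh1 had mean log2 levels from 10.75 to 14.01, while Epcam, at 4.34, and Afp, at 4.14, lay below the array medians of 5.91 to 6.08. Of the markers of hepatocytes (6 measured), endothelium (6) and fibroblasts (8), none was called after the antibody against either of the other conditions without the block. With it, the fibroblast and stellate markers Acta2, at 0.32 ± 0.19, and Col3a1, at -0.23 ± 0.13, were called against HGF/SF1. Of 10 progenitor markers Sox9 was called, at 0.96 ± 0.38 over HGF/SF1, and with the block also over untreated cells, at 0.67 ± 0.38. Of 11 leukocyte markers 1 was called, the lysosomal gene Cd68, at 2.60 ± 0.65 over untreated cells and 2.20 ± 0.65 over HGF/SF1, with Ptprc, the defining marker, at a mean level of 3.25. The mean log2 level of the 11 leukocyte markers was between 5.26 and 5.31 on the antibody arrays, 5.11 and 5.18 on the HGF/SF1 arrays and 5.03 and 5.09 on the untreated arrays. The 3′ to 5′ log2 ratio of actin control probe sets was between 0.23 and 0.37 on the antibody arrays, 0.30 and 0.75 on the HGF/SF1 arrays and 0.20 and 0.87 on the untreated arrays. The part of Cd68, of the other markers called and of the actin ratio in the differences of the mitotic genes was not tested.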

How the data were processed

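Total RNA of MLP29 cells was measured on 9 arrays, 3 per condition. The authors corrected the background of all arrays by the rma method, in 1 run of affylmGUI. What they deposited is 1 log2 value per probe set and array. Their normalization between arrays and summary per probe set are not given in the sources used here, and array medians of 5.91 to 6.08 led to the values being used as deposited. Of 22690 probe sets, 64 controls were left out. The platform annotation names 1 gene for 20380 of the other 22626. A mean per condition was fitted to all of these with limma 3.58.1 in R 4.3.3 and variances were moderated by eBayes (6 residual and 2.39 prior degrees of freedom), two-sided, at the unadjusted p under 0.05 and the Benjamini-Hochberg adjusted p under 0.05. The fit without the block was run on simulated independent arrays into which known changes had been put. That simulation had no experiment effect, so it does not cover the pairing of these arrays. Summaries used Python 3.11.15 with pandas 2.3.3. Promoter windows are those of RefSeq for GRCm38.p6.

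Experiments 1, 2 and 3 come from the days in the labels, which hold each condition once and so pair the arrays. For the members and the other lists, blocked counts of calls are given where they differ. Blocked values of single genes are given for some only. Deviations from condition means correlated with r from 0.0958 to 0.591 between arrays of 1 experiment and from -0.484 to 0.0308 between other arrays of different conditions. Labels do not say whether a separate RNA sample was split, and p-values measure the spread between these arrays.

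The members and the other lists were chosen with earlier results of these data known. Values on every array are given for members called in any comparison, for a core set of 10 (9 of them measured) and for members with a dimmer probe set called in the direction of the brightest one. Cenpe and Fzr1 are given in full in addition, as are the values of Foxm1, Nfyb, Sox9, Acta2, Col3a1, Ncapg2 and Kifc1, which were named after their values were seen. Alternatives were the experiment as a fixed or random block, median centring, quantile normalization, probe sets above the median level, limma trend, the arrays of both compared conditions alone, the mean of all probe sets of a gene, and each array or experiment left out.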

Additional observations from a re-analysis of the deposited data

How the results depend on the processing

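With the experiment as a replicate block, which the pairing of arrays by day supplies, 19 members in place of 4 were called higher for antibody against untreated, 43 in place of 24 for antibody against HGF/SF1, and 1 in place of 0 lower for HGF/SF1 against untreated. The number past the adjusted threshold was 2 in place of 0 for antibody against HGF/SF1. With the experiment as a random block (correlation 0.249), 8 and 37 were called higher in the antibody comparisons with untreated and HGF/SF1. Calls over all 22626 probe sets, in either direction, were then 3684 and 4051, in place of 2674 and 2978. Under median centring, quantile normalization, the brighter probe sets alone (48 members tested), limma trend, the arrays of both conditions alone and the mean of all probe sets, these counts stayed within 1.5 times of those reported and the medians kept their sign. Median centring moved the median of all probe sets by at most 0.06.

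With each array or experiment left out in turn, the count called higher ran from 1 to 10 for antibody against untreated and from 8 to 40 for antibody against HGF/SF1, and the count called lower for HGF/SF1 against untreated from 0 to 10. Calls over all probe sets, in either direction, ran from 912 to 4014, from 1257 to 4114 and from 123 to 366 in these 3 comparisons. Other counts of calls among the members were 0 throughout, with 1 exception. For antibody against HGF/SF1 the count past the adjusted threshold ran from 0 to 1 (1 without the antibody array of experiment 1). The medians ran from 0.15 to 0.77, from 0.64 to 1.17 and, for HGF/SF1 against untreated, from -0.77 to -0.04. None of these medians changed sign, and the causes of these shifts were not tested. An exact permutation test of 3 against 3 arrays cannot go below p = 0.1.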
